A study of Mus musculus with 54 samples.

Results

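The Fc gamma receptors of mouse microglia are described here as 5 genes: the receptors Fcgr1, Fcgr2b, Fcgr3 and Fcgr4, and Fcer1g, which encodes their shared signalling chain. They were picked by gene symbol from the 16632 genes of the deposited count table. No rule on their values was used, but earlier results of these data were known. All 5 were found and passed the filter on low counts that left 13169 genes tested.

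Fc gamma receptors bind the constant part of IgG and let phagocytes take up antibody-coated material. FcγRI (Fcgr1), FcγRIII (Fcgr3) and FcγRIV (Fcgr4) are activating: they signal through the common gamma chain (Fcer1g), whose ITAM tyrosine motif is phosphorylated by Src-family kinases such as Lyn and then recruits the kinase Syk. FcγRIIB (Fcgr2b) is the inhibitory member: its ITIM motif recruits the lipid phosphatase SHIP1 (Inpp5d). FcγRIIB has also been described as a cell-surface receptor for aggregated alpha-synuclein (aSyn), the protein that accumulates in Parkinson's disease, and interferons raise FcγRI and FcγRIV in macrophages.

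The study followed the passage of aSyn between microglia. All cells were primary microglia of strain C57BL/6, grown from pooled neonatal brains in medium with L929 cell supernatant and shaken off an astrocyte layer, so every group, controls included, shares that medium and origin. Donor cells were given 1 µM fluorescently labelled aSyn for 14 h, acceptor cells carried only a violet dye, and the populations were mixed and then separated by flow sorting. The 14 groups were untreated cells, aSyn-treated donor cells labelled with no co-culture time (both 4 units), and donors and acceptors at 0, 15, 30, 60, 150 and 300 min of co-culture (3 or 4 units each). The protocol lists mixing times from 15 min on and does not say how the 0 min cells were handled, nor whether the untreated and aSyn-treated cells were sorted.

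The number in a sample's title is taken as the experiment, and same-numbered untreated libraries (numbers 2 and 4) were summed, so 54 libraries gave 52 units. Experiment 1 has passage label 3, experiment 2 label 1, and experiments 3 and 4 label 2. Experiment 4 also carries its own block of facility numbers, and values without it stand for a within-batch check of the other 3. Its libraries also stand apart in Rn45s, a ribosomal RNA precursor, at a mean of 18.2% of counts beside 6.60% in the others. The labels do not say that same-group samples came from separate cultures, so p-values measure the spread between these samples, which may be technical in part. Total counts ran from 7807389 to 15537493 a library, with a median of 13036175.5. All 10 microglial markers were detected, with summed levels of 2567 to 7452 CPM (counts divided by the library size and scaled to a common total). The 8 astrocyte markers summed to 7.59 to 139 CPM, the 4 neuronal markers to 0.0837 to 4.97 CPM, and the B cell markers in the table, Cd79a and Ms4a1, to 0 to 0.428 CPM. B cells express Fcgr2b but no activating Fc gamma receptor.

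All but 1 of the genes lie together. Fcgr2b (chr1:170958617-170976547, minus strand), Fcgr4 (chr1:171018920-171029761, plus strand), Fcgr3 (chr1:171051174-171064935, minus strand) and Fcer1g (chr1:171229572-171234365, minus strand) span 275.7 kb of chromosome 1, while Fcgr1 lies on chromosome 3 (chr3:96282909-96293969, minus strand), in GENCODE vM21 coordinates on build GRCm38, the assembly called mm10 in the submitters' processing notes. The antisense gene Gm38204 overlaps Fcgr2b, and the use of strand in counting is not given in the sources used here, so reads of the pair cannot be told apart. Of the 50-base stretches of the transcripts, 11.4% of those of Fcgr2b and 12.8% of those of Fcgr3 also occur in another gene, Fcgr3 sharing with Fcgr2b alone. In the last 500 bases, where this 3′-end method reads, no stretch of any of the 5 genes was shared.

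The 250 bases before the RefSeq start (GRCm38.p6, given 5′ to 3′ on the gene's strand) are shown for the receptors because interferon-induced genes were among those most like Fcgr1 over the units, while other genes were most like Fcgr2b and Fcgr3. Capitals mark matches to TTCNNNGAA (gamma-activated site core), GAAANNGAAA (interferon-stimulated response element core) or GAGGAA (PU.1 core), searched on both strands.
Fcgr1 (chr3:96293970-96294219, minus strand): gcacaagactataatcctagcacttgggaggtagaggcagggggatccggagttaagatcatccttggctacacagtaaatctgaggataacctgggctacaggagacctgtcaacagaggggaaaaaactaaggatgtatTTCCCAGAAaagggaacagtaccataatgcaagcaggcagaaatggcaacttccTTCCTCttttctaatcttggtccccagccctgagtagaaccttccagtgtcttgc
Fcgr4 (chr1:171018676-171018925, plus strand): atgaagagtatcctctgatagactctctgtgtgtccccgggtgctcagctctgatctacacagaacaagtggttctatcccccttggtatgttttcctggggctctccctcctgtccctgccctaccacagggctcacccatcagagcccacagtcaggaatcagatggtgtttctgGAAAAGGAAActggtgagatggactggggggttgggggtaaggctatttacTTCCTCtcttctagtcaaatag
Fcgr2b (chr1:170976072-170976321, minus strand): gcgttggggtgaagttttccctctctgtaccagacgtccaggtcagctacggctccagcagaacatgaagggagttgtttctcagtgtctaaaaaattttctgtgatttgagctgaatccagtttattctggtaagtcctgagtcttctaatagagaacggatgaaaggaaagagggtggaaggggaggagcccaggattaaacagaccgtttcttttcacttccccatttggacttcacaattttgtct
Fcgr3 (chr1:171059404-171059653, minus strand): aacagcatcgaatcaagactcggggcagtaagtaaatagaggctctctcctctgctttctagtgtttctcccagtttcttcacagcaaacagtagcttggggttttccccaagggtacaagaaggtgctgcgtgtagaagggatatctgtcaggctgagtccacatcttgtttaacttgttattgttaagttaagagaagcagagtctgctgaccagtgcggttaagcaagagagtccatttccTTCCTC
The Fcgr1 window holds TTCCCAGAA at 109 to 101 bases before the start, a pattern present in 7.2% of 27025 promoter windows of the same length. The Fcgr4 window holds GAAAAGGAAA at 73 to 64 bases before the start, a pattern present in 3.0% of windows. The PU.1 core, present in 23.1% of windows, lies on the opposite strand (TTCCTC) at 55 to 50 bases in Fcgr1, 22 to 17 in Fcgr4 and 6 to 1 in Fcgr3. None of the 3 patterns occurs in the Fcgr2b or Fcer1g window. Only 1 start per gene was searched. The Fcgr2b and Fcgr3 windows lie inside the gene spans given above, so bases before the outermost annotated start of these genes were not searched. These are letter matches only.

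The shared chain was by far the most abundant of the transcripts. The mean over 52 units was 2293 CPM for Fcer1g, 479 CPM for Fcgr3, 402 CPM for Fcgr1, 209 CPM for Fcgr4 and 57.7 CPM for Fcgr2b. Among 16632 genes Fcer1g ranked 32, Fcgr1 326, Fcgr4 719 and Fcgr2b 2853. The method reads each transcript near its 3′ end, so these levels need no division by transcript length. The genes varied in different ways. Experiment number accounted for 49.6%, 54.1% and 47.5% of the variance of log2 CPM of Fcgr1, Fcgr3 and Fcgr4, and the group for 20.7%, 6.39% and 20.6%. For Fcgr2b the shares were 16.0% for the experiment and 55.3% for the group, and Fcer1g had 23.8% and 33.4%. Each share was taken on its own, with 14 groups against 4 experiments. A factor with more levels takes a larger share even without an effect, so group and experiment shares of a gene cannot be ranked. Experiment 2 had the highest Fcgr1 and Fcgr4 level in each of the 13 groups in which it had a unit.

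**Figure D1:**
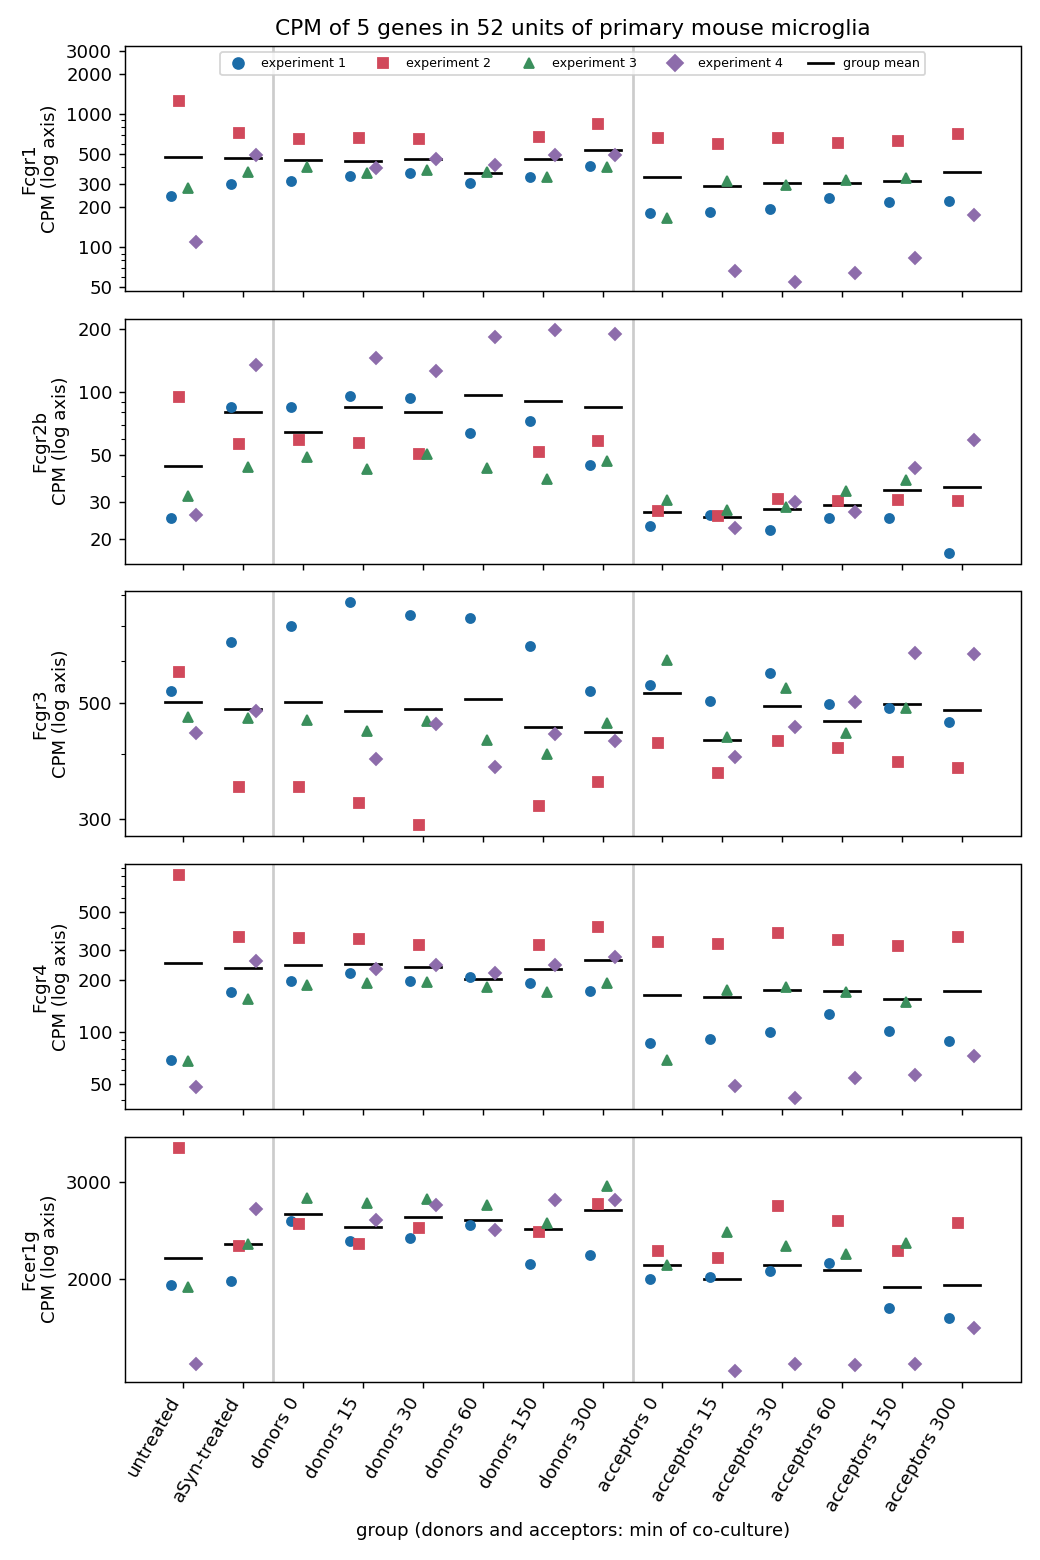
CPM (log axis) of each gene in the 14 groups. Each point is 1 unit, with colour and shape giving the experiment, and black bars are group means. Fcgr2b acceptor units lie between 17.2 and 58.9 CPM. For Fcgr1 and Fcgr4, experiment 2 is highest in each group in which it has a unit, with its untreated unit on top.

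The first comparison asks whether exposure to aSyn without labelled co-culture went with a change of the receptors. None of the 5 genes passed the test, while single experiments differed widely. Fcgr2b, the inhibitory receptor, read 25.2, 94.9, 32.1 and 26.1 CPM in the untreated units of experiments 1 to 4 and 85.0, 56.8, 44.0 and 135 CPM in the aSyn-treated units. It was higher with aSyn in experiments 1, 3 and 4 and lower in experiment 2, and the groups overlapped only through the untreated unit of experiment 2. The group means were 44.6 ± 33.7 and 80.2 ± 40.4 CPM (SD, n = 4 each). The fitted difference was 0.84 on the log2 scale, with SE 0.49 and adjusted p = 0.383 (edgeR quasi-likelihood test with Benjamini-Hochberg adjustment over all genes).

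Fcgr4, an activating receptor, read 69.03, 815, 67.6 and 47.6 CPM in untreated units and 171, 357, 156 and 256.5 CPM with aSyn. It too was higher with aSyn in 3 of 4 experiments, and the 4 aSyn-treated units lay between the untreated unit of experiment 2 and the other untreated units. The fitted log2 difference was -0.09, with SE 0.68 and adjusted p = 0.968 in edgeR. Fcgr1, the high-affinity receptor, read 243.2, 1271, 279.7 and 109 CPM in untreated units and 299, 724, 369 and 497 CPM with aSyn. The order of experiments was the same, 3 higher and experiment 2 lower, and the fitted log2 difference was -0.01, with SE 0.65 and adjusted p = 0.996 in edgeR.

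Fcgr3, the low-affinity activating receptor, stayed within a narrower range, at 527, 572, 469.9 and 437 CPM untreated and 651, 345, 467 and 483 CPM with aSyn. It was higher in 2 experiments and lower in 2, and the fitted log2 difference was -0.04, with SE 0.25 and adjusted p = 0.955 in edgeR. Fcer1g, the shared chain, read 1952, 3468, 1929 and 1399 CPM untreated and 1983, 2298.5, 2311 and 2685 CPM with aSyn. It was higher in 3 experiments and lower in experiment 2, and the fitted log2 difference was 0.08, with SE 0.21 and adjusted p = 0.879 in edgeR. The median of the 5 genes was -0.01 beside -0.04 over all genes tested.

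In all, 0 of 5 genes were called, where 2.50% of all genes tested were called, and 0 of 5 had an unadjusted p under 0.05 (2254 of all genes did). With the experiment number as a block in the edgeR fit 0 of 5 were called, where 19.2% of all genes were, and DESeq2 called 0 as well. The values moved when single experiments were left out. Without experiment 2, Fcgr4 was called, at a log2 value of 1.69 (edgeR adjusted p = 0.0404, 1.64% of all genes called). With the block and without experiment 2, Fcgr4 (1.74, edgeR adjusted p = 0.00484) and Fcgr2b (1.51, edgeR adjusted p = 0.0223) were called, where 14.1% of all genes were. Without experiment 4 and without the block, Fcgr2b was at 0.29 and Fcer1g at -0.15. With the block and without experiment 4 the Fcgr2b and Fcgr4 values were 0.29 and 0.06, and none of the 5 was called.

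That untreated unit stood apart in other genes as well. Isg15, an interferon-induced gene, read 125, 1246, 212 and 69.97 CPM in the untreated units of experiments 1 to 4, against 218, 535, 453 and 1394 CPM with aSyn. Astrocyte markers summed to 18.8 CPM there, beside 11.3, 77.6 and 139 CPM in experiments 1, 3 and 4, and the neutrophil markers in the table, S100a8 and Csf3r, to 16.4 CPM, beside 7.77, 11.2 and 7.24 CPM. The microglial markers summed to 6654 CPM there, within the untreated range of 4737 to 6777 CPM. In the aSyn-treated unit of experiment 4 they summed to 2742 CPM, beside 4737 CPM in its untreated unit. The other aSyn-treated units lay between 5141 and 6262 CPM. The part of these genes in the result was not tested. In bulk samples such as these, fewer cells that express a gene and less RNA per cell cannot be told apart.

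**Figure D2:**
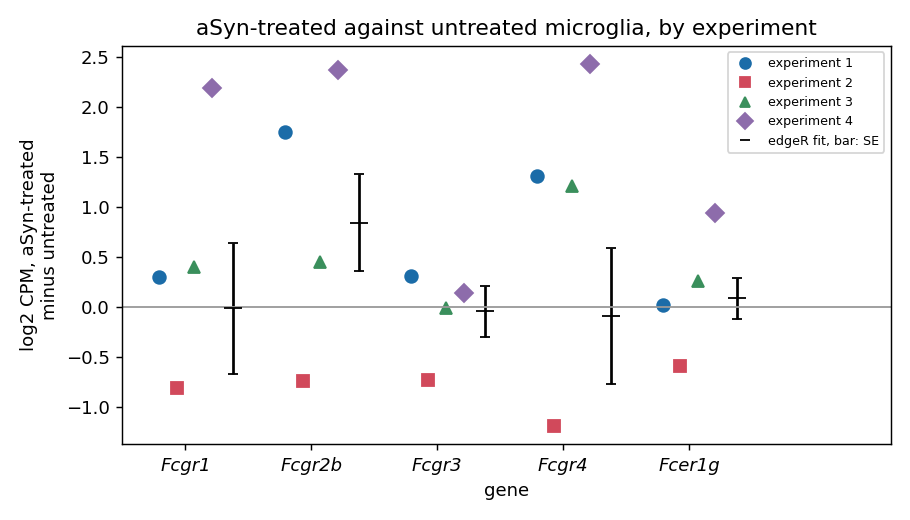
Difference in log2 CPM, aSyn-treated minus untreated, for each gene. Coloured points are the 4 experiments and the black mark is the edgeR log2 fold change with its SE; experiment 2 lies below 0 for every gene, and Fcgr1, Fcgr2b, Fcgr4 and Fcer1g lie above 0 in the other 3.

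Donors and acceptors of the same co-culture were compared next, at each time. Fcgr2b separated the populations at 0, 15, 30 and 60 min. Of the other genes, Fcer1g did so at 0 min alone. At 0 min donors read 84.8, 59.4 and 49.2 CPM in experiments 1 to 3 and acceptors 22.9, 27.1 and 30.8 CPM. At 15 min the 4 donor units read 95.3, 57.1, 43.2 and 146 CPM and the acceptor units 25.9, 25.7, 27.4 and 22.6 CPM. At both times each donor unit lay above each acceptor unit, and the acceptor units lay close together.

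At 30 min donors read 93.9, 50.9, 50.7 and 126 CPM and acceptors 22.1, 31.0, 28.3 and 30.1 CPM. At 60 min donors read 64.1, 43.4 and 183 CPM in experiments 1, 3 and 4, and acceptors 25.2, 30.3, 33.8 and 26.7 CPM in experiments 1 to 4. The groups did not overlap at these times either. Every donor unit lay above every acceptor unit for 8.63%, 3.12%, 3.31% and 3.85% of all genes tested at 0, 15, 30 and 60 min.

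The groups overlapped at the last times. At 150 min donors read 72.6, 51.8, 38.4 and 198 CPM and acceptors 25.2, 30.6, 38.2 and 43.4 CPM. At 300 min donors read 44.9, 58.4, 47.0 and 189 CPM and acceptors 17.2, 30.2 and 58.9 CPM in experiments 1, 2 and 4. The overlap came from the acceptors of experiment 4, which lay above the donors of experiment 3 at both times; full separation was seen for 2.36% and 3.15% of all genes. Within experiments, donors were above acceptors in 21 of 21 same-numbered pairs over the 6 times, as for 2.35% of all genes. These pairs come from 4 experiments and are not 21 independent comparisons.

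The size of the difference depended on the experiment. Averaged over times, the ratio of mean Fcgr2b CPM in donors to that in acceptors was 3.29, 1.92, 1.42 and 4.63 in experiments 1 to 4. In the edgeR fit without a block, the log2 fold change was 1.26 at 0 min (SE 0.57, adjusted p = 0.598), 1.75 at 15 min (SE 0.50, adjusted p = 0.0895), 1.53 at 30 min (SE 0.50, adjusted p = 0.154), 1.74 at 60 min (SE 0.52, adjusted p = 0.151), 1.39 at 150 min (SE 0.49, adjusted p = 0.328) and 1.26 at 300 min (SE 0.54, adjusted p = 0.733). No time was called, and the unadjusted p was under 0.05 at each of the 6 times, for Fcgr2b alone among the 5 genes; 985, 1513, 1507, 1297, 1109 and 805 of the 13169 genes tested were under it at 0, 15, 30, 60, 150 and 300 min.

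With the experiment as a block, Fcgr2b was higher in donors at 15 min (log2 fold change 1.58, edgeR adjusted p = 0.00845), 30 min (1.43, edgeR adjusted p = 0.0139) and 60 min (1.43, edgeR adjusted p = 0.0325). DESeq2 without the block called it at 15 min (1.76, adjusted p = 0.0224, 1.61% of all genes called). With the block and without experiment 2 it was called at 15 min (1.72, edgeR adjusted p = 0.0232, 4.38% of all genes) and 30 min (1.67, edgeR adjusted p = 0.0234, 5.47% of all genes), and it missed the threshold at 60 min (1.48, edgeR adjusted p = 0.0571). With the block and without experiment 4 it was called at 15 min (1.28, edgeR adjusted p = 0.0175, 6.66% of all genes) and 30 min (1.26, edgeR adjusted p = 0.0160, 8.58% of all genes). At 60 min it was at 0.88 in that fit (edgeR adjusted p = 0.188). The calls at 15 and 30 min under the block thus held without experiment 2 and without experiment 4, and that at 60 min did not. At 0 min Fcgr2b was called with the block and without experiment 4 (1.23, edgeR adjusted p = 0.0157, 11.1% of all genes). No 0 min unit belongs to experiment 4, so leaving it out took no unit from that comparison. With experiment 4 in, Fcgr2b was likewise at 1.23 at 0 min under the block, and was not called (edgeR adjusted p = 0.113).

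**Figure D3:**
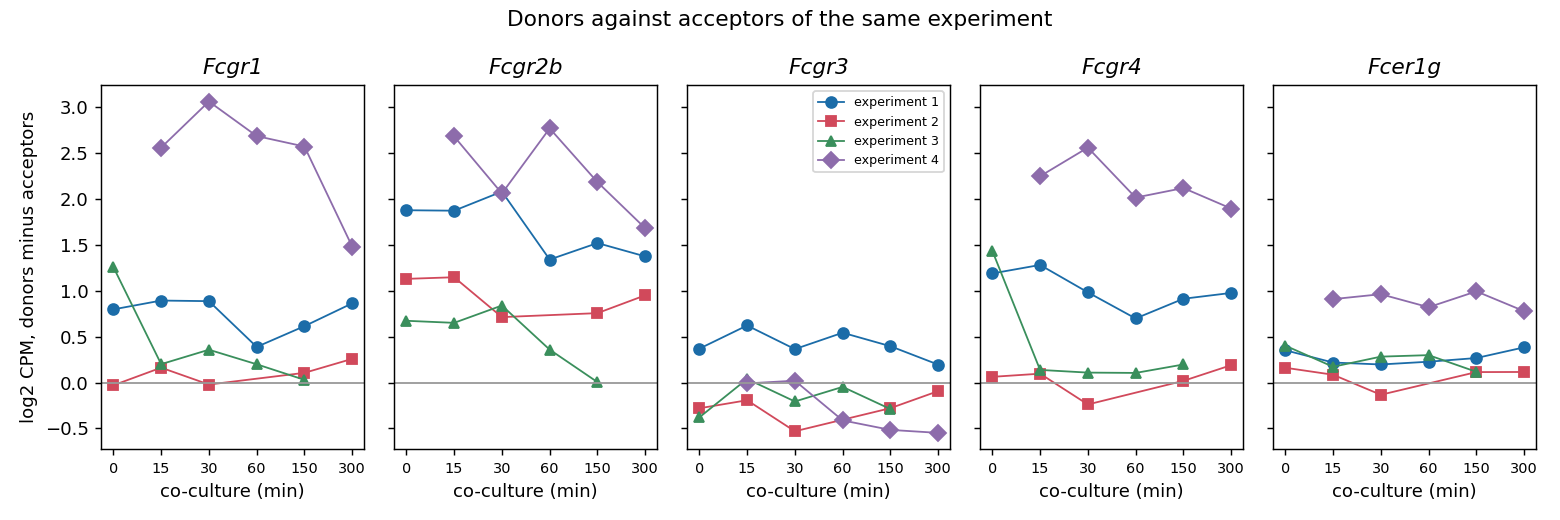
Difference in log2 CPM, donors minus acceptors of the same experiment, at each co-culture time (categories, not to scale in minutes). Lines join the times of 1 experiment; all 21 Fcgr2b points lie above 0, from 0.01 to 2.77, and experiment 4 has the largest differences of Fcgr1, Fcgr4 and Fcer1g.

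The other genes moved less evenly between donors and acceptors, and 0 of the other 4 were called at any time, with or without the block. Fcgr1 was higher in donors in 19 of 21 pairs, with ratios of mean CPM of 1.67, 1.07, 1.29 and 5.07 in experiments 1 to 4. Fcgr4 was higher in 20 of 21 pairs, with ratios of 2.00, 1.02, 1.25 and 4.44. Both receptors thus differed mainly in experiment 4, where acceptors read 89.3 CPM of Fcgr1 and 54.7 CPM of Fcgr4 on average over times, and little in experiment 2. Experiment 4 is also the one with the high share of Rn45s. With Rn45s left out of the counts, 0 of the 5 genes were called at any time in the edgeR fit without a block, as with it in. A count already at 0 cannot show whether Rn45s bears on the ratios of experiment 4, which was not tested. Fcer1g was higher in 20 of 21 pairs with ratios of 1.21, 1.05, 1.19 and 1.86, and Fcgr3 in 8 of 21 with ratios of 1.34, 0.827, 0.879 and 0.805. With the block and without experiment 4, Fcgr1 was called at 0 min (log2 fold change 0.65, edgeR adjusted p = 0.0410, 11.1% of all genes called). Neither 0 min group holds a unit of experiment 4, so leaving it out took no unit from this comparison. With experiment 4 in, Fcgr1 was at 0.66 at 0 min under the block (edgeR adjusted p = 0.467).

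Over all 5 genes the share called without the block was 0 at each time, where 0.251%, 0.888%, 0.805%, 0.418%, 0.167% and 0.0304% of all genes were called at 0, 15, 30, 60, 150 and 300 min. With the block, 1 of 5 was called at 15, 30 and 60 min and 0 at the other times, where 4.28%, 9.57%, 10.8%, 6.70%, 5.19% and 1.38% of all genes were called. The median of the 5 log2 fold changes without the block ran from 0.24 at 60 min to 0.61 at 15 min, beside medians of all genes from -0.03 to 0.00. Donors at 60 min lack a unit of experiment 2, which acceptors at 60 min have, so that value compares different experiments. With the block the median ran from 0.66 at 0 min to 0.87 at 15 min, and was 0.85 at 60 min. At 15 min the summed astrocyte markers were 9.83 to 19.2 CPM in donors and 11.5 to 42.3 CPM in acceptors, and the microglial markers 2567 to 7284 CPM and 4604 to 6684 CPM; their part in the result was not tested. The B cell markers Cd79a and Ms4a1 summed to at most 0.159 CPM in donors and 0.211 CPM in acceptors at that time.

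Co-culture itself was examined by setting donors against the aSyn-treated cells and acceptors against untreated cells; the 6 contrasts of each kind share their control units. In donors, mean Fcgr2b ran from 64.4 ± 18.3 CPM at 0 min (n = 3) to 96.9 ± 75.5 CPM at 60 min (n = 3), around 80.2 CPM in aSyn-treated cells. Donors at 0 min lack experiment 4 and those at 60 min lack experiment 2, so these means cover different experiments. In experiments 1 to 3, Fcgr2b read 84.8, 59.4 and 49.2 CPM in donors at 0 min and 85.0, 56.8 and 44.0 CPM in aSyn-treated units. Mean Fcgr1 in donors ran from 363 to 537 CPM (472 CPM in aSyn-treated cells), Fcgr3 from 439 to 508 CPM (487 CPM there), Fcgr4 from 203 to 260.7 CPM (235.2 CPM there) and Fcer1g from 2470 to 2672 CPM (2319 CPM there). The lowest Fcgr1 and Fcgr4 means were those at 60 min, without experiment 2. No gene was called at any time with or without the block, and none had an unadjusted p under 0.05 without it. The share of all genes called was 0% at 0, 15, 30, 60 and 150 min in both fits, and 0.0304% at 300 min (0.304% with the block).

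Acceptors read lower means of Fcgr2b, Fcgr1 and Fcgr4 than untreated cells, whose means include the high unit of experiment 2. Mean Fcgr2b in acceptors ran from 25.4 ± 2.04 CPM at 15 min (n = 4) to 35.4 ± 21.3 CPM at 300 min (n = 3), with 44.6 CPM in untreated cells. Without the block, the log2 fold changes against untreated cells ran from -0.82 to -0.33 for Fcgr2b, from -0.71 to -0.36 for Fcgr1, from -0.68 to -0.52 for Fcgr4, from -0.24 to 0.05 for Fcgr3 and from -0.18 to -0.04 for Fcer1g. With it they ran from -0.83 to -0.45 for Fcgr2b, from -0.52 to -0.21 for Fcgr1 and from -0.40 to -0.01 for Fcgr4. Within experiments, Fcgr4 was higher in acceptors in 3 of 4 pairs at 15, 60 and 150 min, in 2 of 4 at 30 min and in 2 of 3 at 0 and 300 min. None was called in either fit, and none had an unadjusted p under 0.05 without the block. The share of all genes called was 0%, 0%, 0.114%, 0.0683%, 0.137% and 0% over the 6 times without the block and 0.995%, 2.25%, 3.60%, 4.0%, 4.78% and 0.623% with it. With the block and without experiment 4, Fcgr1 was lower in acceptors at 0 min (log2 fold change -0.74, edgeR adjusted p = 0.0479, 2.87% of all genes called).

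Ordered by mean, Fcgr2b ran from the acceptors (15, 0, 30, 60, 150, then 300 min) through untreated cells and donors at 0 min to aSyn-treated cells and the other donors (30, 300, 15, 150, then 60 min). No neighbours in that order differed by more than the larger of their SDs. The groups do not all hold the same experiments. Donors and acceptors at 0 min lack experiment 4, donors at 60 min experiment 2 and acceptors at 300 min experiment 3. Time within the co-culture made no detectable difference. Over the 6 times, 0 of 5 genes were called in donors (0.0607% of all genes, 0.577% with the block), in acceptors (0.00759% and 0.137%) or for a time course that differed between them (0% and 0.0456%). The lowest unadjusted p of any of the 5 genes in these 3 edgeR tests was 0.909 without the block, and with it 0.631, both for Fcgr3 in acceptors.

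The share of the inhibitory receptor among the receptors was also taken. Of the counts of the 4 receptors together, Fcgr2b took 3.59 ± 0.54% in untreated cells and 6.24 ± 2.80% in aSyn-treated cells (SD, n = 4 each). It was higher with aSyn in each of the 4 experiments, at 2.92, 3.45, 3.78 and 4.20% in untreated and 7.05, 3.83, 4.24 and 9.85% in aSyn-treated units of experiments 1 to 4, whereas the Fcgr2b level was lower with aSyn in experiment 2. In acceptors the group means lay between 2.73% and 3.61%, and in donors between 5.09% and 8.18%. The interferon-inducible pair Fcgr1 and Fcgr4 together took 44.5 ± 21.8% in untreated and 54.4 ± 14.1% in aSyn-treated cells, with a range of 25.3% to 75.8% among untreated units. These shares are descriptive and were not tested.

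After the mean of each experiment was subtracted, Fcgr1, Fcgr2b, Fcgr4 and Fcer1g varied together over the 52 units, with Pearson r between 0.82 (Fcgr2b with Fcer1g) and 0.92 (Fcgr4 with Fcer1g). Without that subtraction Fcgr2b had r of 0.40 with Fcgr1, 0.46 with Fcgr4 and 0.51 with Fcer1g, while the other 3 genes had r of 0.84 to 0.95 among themselves. Fcgr3 stood apart after the subtraction, with r of -0.02 with Fcgr1, 0.09 with Fcgr4, 0.18 with Fcgr2b and 0.05 with Fcer1g; without it these were -0.38, -0.34, 0.09 and -0.17. The units share experiments, groups and library batches, so these values describe the libraries and carry no p. The 3 genes most like Fcgr1 were Ifi209 (0.98), Oasl2 (0.97) and Isg15 (0.96), all interferon-induced. Those most like Fcgr4 were B2m (0.97), the light chain of MHC class I, Ms4a6b (0.96) and Siglec1 (0.96), a sialic acid-binding receptor of macrophages.

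Among the genes most like Fcgr2b were Lyn (0.94), a Src-family kinase that phosphorylates Fc receptor motifs, and Slc31a2 (0.93), a copper transporter. Fcer1g was most like Ms4a6b (0.93), Psmb8 (0.93), an immunoproteasome subunit, and Isg20 (0.93), an interferon-induced exonuclease. The genes most like Fcgr3 reached lower values: C1qb (0.76) and C1qa (0.68), which encode chains of complement C1q, and Apobec3 (0.69), a cytidine deaminase. C1qb read 2614, 5256, 2950 and 1268 CPM in untreated units of experiments 1 to 4 and 2733, 2893, 2667 and 877 CPM with aSyn. Like Fcgr3, it was highest in the untreated unit of experiment 2 among the untreated units.

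Several signalling partners of the receptors passed the test with aSyn. In aSyn-treated against untreated cells, 3 of 29 tested ITAM kinases, adaptors and effectors were higher and 0 lower (2.50% of all genes were called), and their median log2 fold change was 0.17 beside -0.04 for all genes. Syk, the kinase recruited to the phosphorylated gamma chain, read 73.975, 89.4, 73.1 and 74.2 CPM in untreated and 168, 212, 200.3 and 353 CPM in aSyn-treated units. The fitted log2 difference was 1.59, with SE 0.29 and adjusted p = 0.00121 in edgeR. Ncf4 (1.15, edgeR adjusted p = 0.00325), a cytosolic subunit of the phagocyte NADPH oxidase, was also higher. Fgr, a Src-family kinase, was at 2.44 (edgeR adjusted p = 0.293, and 0.0195 with the block). Its levels were low and overlapped, at 0 to 0.686 CPM in untreated and 0.349 to 2.35 CPM in aSyn-treated units. With the block, 11 of 29 were higher and 2 lower, where 19.2% of all genes were called.

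Of 7 tested partners of the gamma chain and related adaptors, 2 were higher and 0 lower (3 and 0 with the block, against the same share of all genes), with a median of 0.76. Both are C-type lectin receptors that use the gamma chain. Clec4n (Dectin-2) read 24.1, 28.3, 27.9 and 13.1 CPM in untreated and 75.7, 112, 136 and 237 CPM in aSyn-treated units. Its fitted log2 difference was 2.59, with SE 0.44 and adjusted p = 7.64e-04 in edgeR. Clec4e (Mincle) read 8.28, 16.7, 38.6 and 5.47 CPM in untreated and 67.6, 117, 346 and 851 CPM in aSyn-treated units. Its fitted log2 difference was 4.33, with SE 1.13 and adjusted p = 0.0259 in edgeR. Trem2, a receptor that signals through Tyrobp, was at -1.08 (edgeR adjusted p = 0.416), with the lowest unit, 36.8 CPM, in aSyn-treated cells of experiment 4.

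Of 15 inhibitory receptors and phosphatases, 0 were called (4 higher and 1 lower with the block), and their median was 0.14. The largest values were those of Siglece (3.11, edgeR adjusted p = 0.0642), an inhibitory sialic acid receptor, Dok2 (-1.003, edgeR adjusted p = 0.159), an adaptor, and Pirb (0.58, edgeR adjusted p = 0.506), an inhibitory receptor for MHC class I. With the block Siglece was higher (2.69, edgeR adjusted p = 5.03e-04), Dok2 lower (-1.05, edgeR adjusted p = 1.34e-04) and Pirb higher (0.64, edgeR adjusted p = 0.0245). Of 4 tested other Fc receptors, 0 were called in either fit, with a median of -0.45: Fcrls was at -0.99 (edgeR adjusted p = 0.458), Fcrl1 at -0.56 (edgeR adjusted p = 0.592) and Trim21, a cytosolic antibody receptor, at -0.34 (edgeR adjusted p = 0.560).

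Among markers of other cells, Pecam1 was the gene called in this comparison without the block, at a log2 value of 2.53 (edgeR adjusted p = 0.0389). It encodes an adhesion molecule of endothelium that myeloid cells can also carry, and its levels were low, 0 to 0.566 CPM in untreated and 1.03 to 2.44 CPM in aSyn-treated units. The 2 endothelial markers in the table together gave 45.9 to 88.2 CPM in untreated and 49.2 to 76.8 CPM in aSyn-treated units. Pecam1 was also higher in donors than in acceptors at 15 min (2.91, edgeR adjusted p = 0.0351) and 30 min (3.45, edgeR adjusted p = 0.0107). With the block, 5 of 8 astrocyte markers and 2 of 5 markers of oligodendrocytes and their precursors were lower with aSyn, and of the 10 microglial markers 2 were higher and 3 lower, where 19.2% of all genes were called. The median log2 fold changes without the block were -2.14 for the astrocyte list, -1.87 for the oligodendrocyte list and -0.15 for the microglial list. Astrocyte markers summed to 11.3 to 139 CPM in untreated and 11.2 to 29.3 CPM in aSyn-treated units, and oligodendrocyte markers to 108 to 481 CPM and 70.6 to 230.4 CPM. The part of these markers in the results was not tested.

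**Figure D4:**
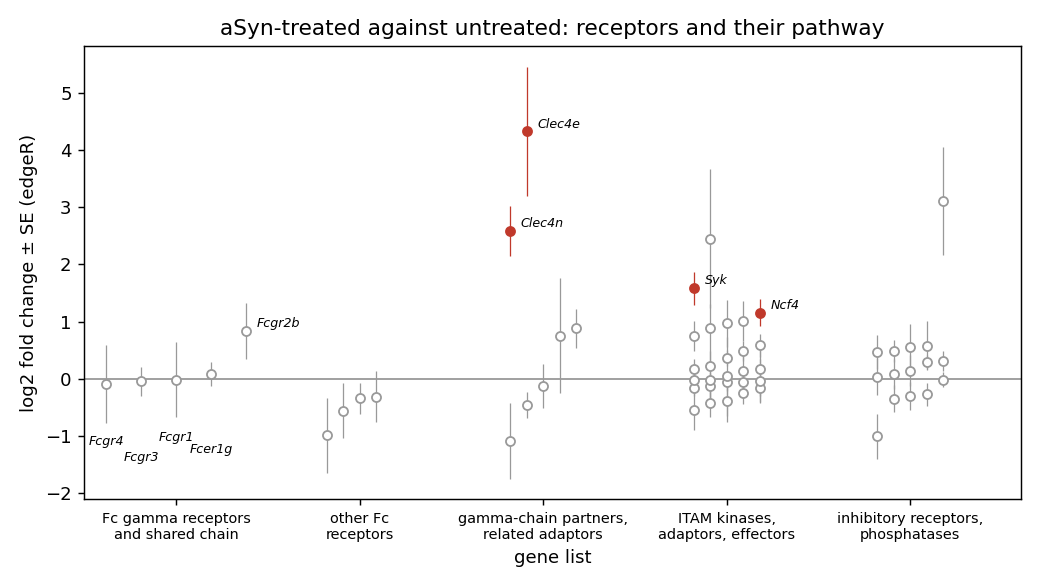
Log2 fold change (edgeR, bars are SE) of aSyn-treated against untreated cells for the tested genes of the 5 lists that are reported here. Filled red points have an adjusted p under 0.05: 0 of the 5 receptor genes, and Clec4e, Clec4n, Syk and Ncf4 among the partners. Unfilled points did not pass, and points are spread sideways only for legibility.

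Partner genes were also compared between donors and acceptors, and without the block all those called were higher in donors. At 15 min 4 of 29 ITAM genes were higher and 0 lower without the block (Lyn, Ncf4 and Syk among them), at 30 min 5 (Lcp2, Lyn, Ncf4 and Syk among them), at 60 min 2 (Lyn and Syk) and at 0, 150 and 300 min 0; Lcp2, an adaptor, is named because of its value. At 15 min the log2 fold change was 1.53 for Syk (SE 0.29, edgeR adjusted p = 0.00237) and 0.90 for Lyn (SE 0.18, edgeR adjusted p = 0.00553), beside 1.75 for Fcgr2b (SE 0.50), which missed the threshold. Clec4n was higher at 15, 30, 60 and 150 min, with log2 fold changes from 2.00 to 2.17. Inpp5d, which encodes the phosphatase recruited by FcγRIIB and is likewise named because of its value, was higher at 15 min (0.49, edgeR adjusted p = 0.0271) and 30 min (0.52, edgeR adjusted p = 0.0153). Without the block it was the gene called among the 15 inhibitory receptors and phosphatases at these times, and 0 were called at the other 4 times. The shares of all genes called at 0 to 300 min are those given above for both fits. With the block, 4, 8, 7, 9, 6 and 2 of 29 ITAM genes were higher in donors at 0, 15, 30, 60, 150 and 300 min and 0 lower. Of the 15 inhibitory receptors and phosphatases, 0, 3, 3, 2, 4 and 1 were then higher and 1, 1, 1, 1, 0 and 0 lower.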

How the data were processed

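Gene expression was measured in 54 QuantSeq 3′ libraries. The authors deposited read counts per gene symbol, per the file headers; the submitters' processing notes name STAR, Partek, DESeq2 and build mm10. The deposited DESeq2-normalized signal was used for a check only: 100% of its values lay within 0.1 of the count divided by a size factor (0.634 to 1.34), per the file headers and the values. Total counts per library set the counting precision of each value, while the SEs also hold the spread between units.

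Same-numbered untreated libraries (chi-square per degree of freedom 12.1 and 10.3, against 24.2 to 288 for other pairs) were summed. Counts were tested with edgeR 4.0.16 in R 4.3.3 (quasi-likelihood, TMM, filterByExpr with a minimum count of 10, all 14 groups in 1 design without a block), with Benjamini-Hochberg adjustment over 13169 genes and calls at an adjusted p under 0.05. CPM use TMM library sizes, and log2 CPM for correlations a prior count of 2. Alternatives included DESeq2 1.42.0 and a block on the experiment number. Same-numbered samples deviated together in every pair of groups compared here (lowest r 0.199, mean r 0.339 to 0.593), so the titles' numbers were taken to pair the samples. Passage labels and the facility block of experiment 4 go with these numbers, so this does not show that same-numbered samples share a culture. The procedure was tested on simulated data.

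The 5 genes and the gene lists were chosen with earlier results of these data known. Named partner and marker genes are those called in aSyn-treated against untreated cells, or the 3 largest changes of a list, those of the cell type lists being given only where called; the 3 genes most like each receptor gene were named by Pearson r. Some genes that these rules name are not reported here; counts over lists include them.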

Additional observations from a re-analysis of the deposited data

Results flagged for a closer look

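Of 50 groups of 4 units examined (5 genes in 10 groups), 5 had a unit far from the others by Dixon's criterion; chance flags about 1 in 20 groups. Of these, 3 are the untreated unit of experiment 2: Fcgr1 at 1271 CPM (next 279.7 CPM), Fcgr2b at 94.9 CPM (next 32.1 CPM) and Fcgr4 at 815 CPM (next 69.03 CPM). Fcgr1 was also far from the others in donors at 15 min in experiment 2, at 668 CPM (next 396 CPM). Fcgr2b was far from the others in donors at 300 min in experiment 4, at 189 CPM (next 58.4 CPM).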

How the results depend on the processing

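For the counts of called genes in the 4 group comparisons and 3 time tests, 84 alternative counts stayed at 0 and 7 did not. For aSyn-treated against untreated cells, leaving out each experiment in turn gave 0 to 1 calls (1 without experiment 2), and the block without experiment 2 gave 2. For donors against acceptors the replicate block gave 3 calls, DESeq2 gave 1, and the block gave 2 without experiment 2 and 4 without experiment 4. The last include Fcgr1 and Fcgr2b at 0 min, where neither group holds a unit of experiment 4. For acceptors against untreated cells the block without experiment 4 gave 1. The block changed no other call. The fits that combine the block with a left-out experiment were chosen after seeing the data.

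The sign of the aSyn effect (log2 fold change) depended on the fit for 4 genes. Fcgr1 was at -0.01, at 0.45 with the replicate block, 0.0022 without Rn45s, 0.0041 with only the groups compared, -0.36 to 0.91 leaving out 1 experiment, and 1.03 with the block without experiment 2. Fcgr4 was at -0.09, at 0.64 with the replicate block, -0.47 to 1.69 leaving out 1 experiment, and 1.74 or 0.058 with the block without experiment 2 or 4. Fcgr3 was at -0.04, -0.17 to 0.18 leaving out 1 experiment and 0.17 with the block without experiment 2. Fcer1g was at 0.08, -0.15 to 0.43 leaving out 1 experiment and -0.13 with the block without experiment 4. The cause was not tested. Fcgr2b kept its sign in all 13 alternatives (0.29 to 1.69), as it did for donors against acceptors at 15 min (1.28 to 2.02), 30 min (1.26 to 1.77) and 60 min (0.86 to 2.18).

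Groups had 3 or 4 units, and the SEs of the aSyn effect were 0.65 for Fcgr1 and 0.68 for Fcgr4 although each unit held at least 510 counts of either.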
